A study of Mus musculus with 8 samples.

Results

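The 10 genes described here encode the receptors and first signalling steps of the interferons in mouse pancreatic cancer cells. They are the interferon gamma receptor chains Ifngr1 and Ifngr2, the type I interferon receptor chains Ifnar1 and Ifnar2, the shared receptor chain Il10rb, the Janus kinases Jak1, Jak2 and Tyk2, and the suppressors of cytokine signalling Socs1 and Socs3. They were chosen by symbol, and all 10 were found by Ensembl identifier among the 42687 genes of the count table. The cells were a clone of low immunogenicity from a KPCY mouse tumour, so a single clonal line stands for the model. KPCY mice carry, among other alleles, a Cre-activated Trp53 R172H allele, Pdx1-Cre, which is active in the pancreatic lineage, and a YFP reporter at Rosa26. The samples are nevertheless labelled WT for genotype, and all 4 groups share the same line. One group received PBS. The ATEV group received 15 µg/mL of mouse ATEVs, extracellular vesicles (EVs) whose full name the labels do not spell out. The NTEV group received 30 µg/mL of EVs from non-activated T cells. The labels set the EV-DNA in these additions at 5 µg/mL. The last group received 15 µg/mL of ATEVs pretreated with Baseline-ZERO DNase. Cells were harvested and reseeded on the day after each exposure, and the procedure was repeated 8 times. Each group had 2 RNA sequencing libraries.

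Interferons signal through paired receptor chains. Interferon gamma binds Ifngr1 and Ifngr2, which carry Jak1 and Jak2, whereas type I interferons bind Ifnar1 and Ifnar2, which carry Tyk2 and Jak1. The activated kinases phosphorylate STAT proteins, which enter the nucleus, bind short elements in promoters and switch on target genes. Socs1 and Socs3 are among those targets and feed back on the pathway: both proteins bind kinases or receptors, block kinase activity and recruit a ubiquitin ligase through their SOCS box. Socs1 is known as a strong brake on interferon signalling, and Socs3 as a brake on cytokines of the interleukin-6 family, whose receptors share Il6st.

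Total counts per library ranged from 34385326 to 52451398, and 15197 genes passed the filter on low counts, all 10 members among them. Nothing in the labels states that paired libraries of 1 group were grown separately. The p-values therefore rest on a spread that may be purely technical, estimated by a model that shares it over groups and genes. Of 13 markers of pancreatic cancer epithelium 12 reached 1 CPM, the read count scaled to library size, in at least 1 library, and Krt8 was the highest of them with PBS, at 2553 CPM. Of 15 T cell markers 13 stayed under 1 CPM in every library, with Cd2 and Cd8a at 0, and the summed T cell level was 10.8 to 11.8 CPM with PBS and 8.58 to 11.04 CPM with ATEVs. The 12 markers of fibroblasts and endothelium summed to 10.1 to 11.4 CPM with PBS and 42.5 to 49.0 CPM with ATEVs. Their sums were 10.3 to 11.9 CPM with NTEVs and 10.9 to 16.2 CPM with DNase-treated ATEVs. By the edgeR test used below, 2 of the 6 tested were higher with ATEVs than with PBS, against 3.52% of all genes. It called 1 higher with ATEVs than with NTEVs and 1 lower with DNase-treated than with untreated ATEVs, against 159 and 88 of all 15197 genes. Of these 12, 7 stayed under 1 CPM in every library, with Dcn and Lum at 0. The 10 myeloid markers summed to 69.9 to 103 CPM with PBS, 156 to 169 CPM with ATEVs and 201 to 274 CPM with DNase-treated ATEVs. Of these 10, 8 stayed under 1 CPM in every library, with Adgre1 and Tyrobp at 0, so the sums rest mostly on the other markers. The 5 B cell markers stayed under 1 CPM in every library. The part of these markers in the results was not tested.

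The promoters of the members that differed most from PBS are shown first, because the elements that STATs and interferon regulatory factors (IRFs) recognise can be read in them. RefSeq windows of build GRCm38.p6, from 250 bases before to 50 bases after the annotated start, were matched for 9 of the 10 genes. Capitals mark letters that match a STAT element, TTCNNNGAA, which reads the same on both strands, or an IRF element, GAAANNGAAA, searched on both strands. Each sequence runs 5′ to 3′ on the strand of its gene, which is the minus strand at chr16:10785487-10785786 for Socs1, the minus strand at chr11:117969317-117969616 for Socs3, and the plus strand at chr16:91372533-91372832 for Ifnar2.
Socs1: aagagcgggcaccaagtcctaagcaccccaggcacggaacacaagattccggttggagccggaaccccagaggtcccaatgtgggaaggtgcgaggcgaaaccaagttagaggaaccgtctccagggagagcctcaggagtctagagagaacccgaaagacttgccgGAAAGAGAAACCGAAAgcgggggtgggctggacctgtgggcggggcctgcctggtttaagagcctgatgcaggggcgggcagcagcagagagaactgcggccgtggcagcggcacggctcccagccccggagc
Socs3: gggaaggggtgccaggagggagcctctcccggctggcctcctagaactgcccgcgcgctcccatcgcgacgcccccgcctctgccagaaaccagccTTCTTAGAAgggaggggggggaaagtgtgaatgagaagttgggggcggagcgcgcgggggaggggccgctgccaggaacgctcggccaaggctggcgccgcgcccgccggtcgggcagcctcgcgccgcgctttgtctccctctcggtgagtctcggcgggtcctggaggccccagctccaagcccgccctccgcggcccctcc
Ifnar2: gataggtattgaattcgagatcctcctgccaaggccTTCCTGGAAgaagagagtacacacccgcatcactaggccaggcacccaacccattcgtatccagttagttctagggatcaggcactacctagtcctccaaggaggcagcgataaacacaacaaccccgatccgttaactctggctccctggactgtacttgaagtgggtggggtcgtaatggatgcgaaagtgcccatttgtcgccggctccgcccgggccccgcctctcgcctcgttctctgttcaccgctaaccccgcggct
The Socs1 window held 2 IRF matches, GAAAGAGAAA and GAAACCGAAA, which overlap and begin 83 and 77 bases before the start. It held no STAT match. The Socs3 window held 1 STAT match, TTCTTAGAA, beginning 154 bases before the start, and the Ifnar2 window held TTCCTGGAA, beginning 214 bases before the start. The Ifnar1 window, the only other with a match, held TTCACGGAA, beginning 5 bases before the start. Of 32851 mouse promoter windows of this length, 8.3% held the STAT element and 3.44% the IRF element. These matches describe letters, not bound sites.

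Cells given PBS already had transcripts for both interferon receptors. Levels were compared between genes as CPM per kilobase of annotated exon, which may understate a gene whose annotated exons exceed its main transcript. On this scale the interferon gamma receptor chains stood highest of the 10 with PBS, Ifngr1 at 53.6 ± 4.50 (mean ± SD, n = 2) and Ifngr2 at 49.9 ± 2.58, and their libraries overlapped. The kinases Jak2 and Jak1 followed at 31.4 ± 3.71 and 23.4 ± 1.08 CPM per kilobase. Socs3 at 17.9 ± 6.75 and Ifnar1 at 15.6 ± 1.89 came next and overlapped. Il10rb, Tyk2 and Ifnar2 lay between 7.78 and 8.35 CPM per kilobase on average and could not be ordered beyond their spread. Socs1 was lowest, at 0.800 ± 0.140 CPM per kilobase. Per kilobase, Ifngr1 was thus 3.43-fold above Ifnar1 and 6.89-fold above Ifnar2 with PBS. With ATEVs Socs1 was still last, at 7.20 ± 5.44 CPM per kilobase, but its libraries overlapped those of Il10rb.

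**Figure D1:**
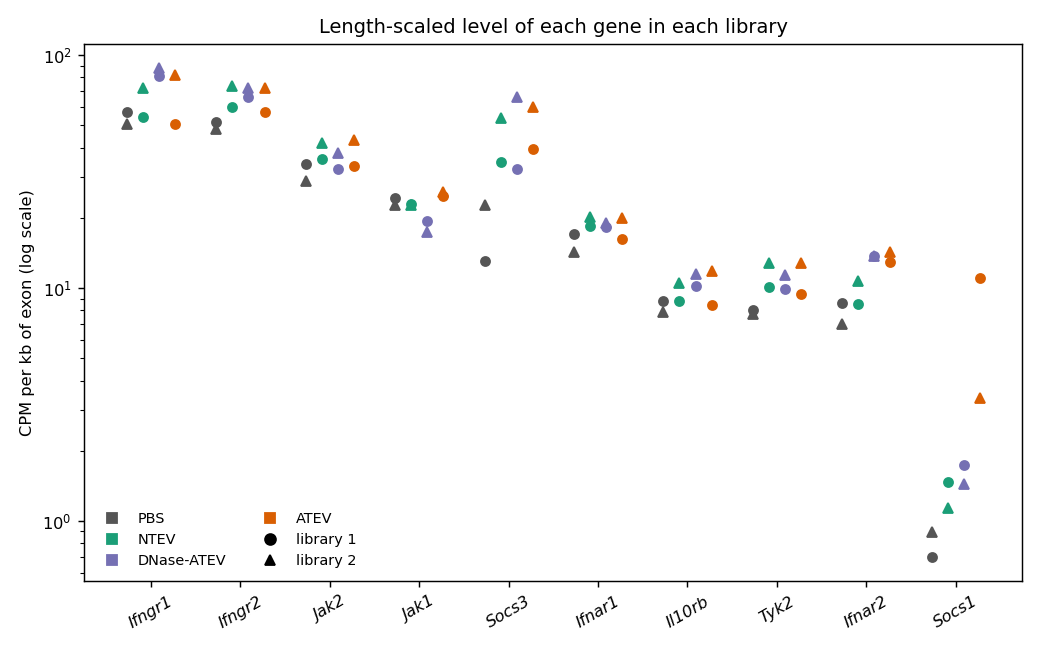
Level of each of the 10 genes per library, in CPM per kilobase of annotated exon on a log scale, with genes ordered by their PBS mean. Points are single libraries, coloured by group, with circles for library 1 and triangles for library 2. Ifngr1 and Ifngr2 stand highest with PBS and Socs1 lowest at 0.800, with its ATEV libraries well above its other libraries.

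Against PBS, 2 of the 10 genes rose with ATEVs, Socs1 and Ifnar2, and none fell. By edgeR's quasi-likelihood test with Benjamini-Hochberg adjustment, 3.52% of all genes tested were called higher with ATEVs and 1.66% lower. DESeq2 called Socs1, Ifnar2 and Socs3, and of all 15197 genes it called 1027 higher and 610 lower. With NTEVs edgeR called 0 of the 10 (background 1.11%), and 3 higher had p under 0.05 before adjustment, as had 10.3% of all genes. DESeq2 called 1 of the 10, Socs3, and 6.47% of all genes. With DNase-treated ATEVs edgeR called 0 (background 3.01%). Before adjustment 4 higher and 1 lower had p under 0.05, against 13.7% and 10.9% of all genes, so the 1 lower is near the background. DESeq2 called 2, Ifnar2 and Socs3, and 11.6% of all genes. The median log2 fold change of the 10 genes was 0.33 for ATEVs, 0.31 for NTEVs and 0.45 for DNase-treated ATEVs, where the median over all genes was -0.02, 0.00 and 0.00. These 3 comparisons share the PBS libraries. Both ATEV libraries lay above both PBS libraries for 6 genes, against 25.2% of all genes. With NTEVs the count was also 6 (28.6% of all genes), and with DNase-treated ATEVs it was 8 (29.7%), with 1 gene below PBS (30.9%). Counts of libraries in bulk RNA cannot tell a higher level in every cell from a larger share of cells that express a gene.

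**Figure D2:**
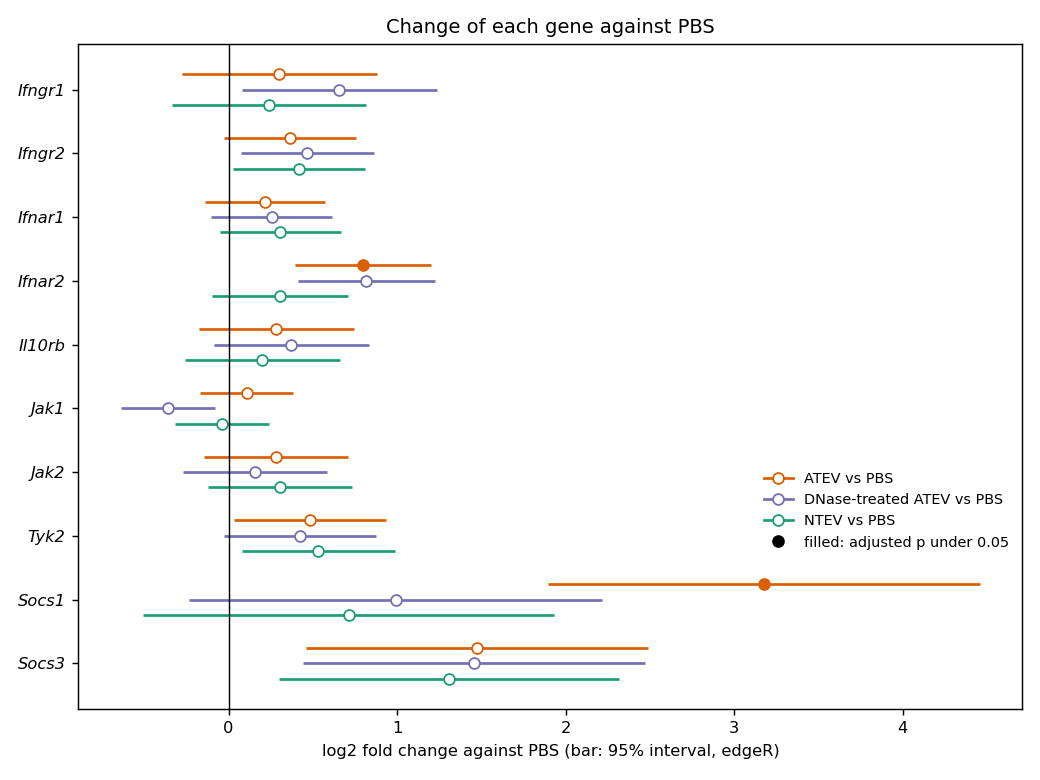
Log2 fold change of each of the 10 genes against PBS (points) with its 95% interval from edgeR (bars), for each kind of EV. Filled points have an adjusted p under 0.05. Only Socs1 and Ifnar2 with ATEVs are filled, and the 3 Socs3 points lie close together between 1.31 and 1.48.

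Socs1, the feedback inhibitor of interferon receptor kinases, differed most. It was at 2.04 and 2.61 CPM in the PBS libraries, at 32.1 and 9.77 CPM with ATEVs, at 4.28 and 3.31 CPM with NTEVs, and at 5.03 and 4.18 CPM with DNase-treated ATEVs. The ATEV libraries thus stood above the other 6, but they differed 3.29-fold from each other, the widest gap of any of the 10 genes within a group. ATEV library 1 was 13.8-fold above the PBS mean and ATEV library 2 was 4.20-fold above it. The group means differed 9.002-fold (edgeR log2 fold change 3.17 ± 0.54 SE, adjusted p = 0.0229). The counts behind these values were 105 and 86 with PBS and 1397 and 428 with ATEVs. Against PBS, Socs1 was 1.63-fold higher with NTEVs (95% interval of the log2 fold change -0.51 to 1.93, edgeR adjusted p = 0.446). With DNase-treated ATEVs it was 1.98-fold higher (interval -0.23 to 2.21, edgeR adjusted p = 0.281). Between ATEVs and NTEVs the difference was 5.52-fold, with a 95% interval of 1.23 to 3.69 on the log2 scale, but it missed the threshold (edgeR adjusted p = 0.107). DNase-treated ATEVs gave a lower Socs1 level than untreated ATEVs, by -2.18 on the log2 scale (interval -3.40 to -0.96), which also missed it (edgeR adjusted p = 0.180). Without ATEV library 2, the library with the lower Socs1 level, both differences passed, at adjusted p = 0.00454 against NTEVs and 0.00896 for DNase-treated against untreated ATEVs, with the lone ATEV library assumed to vary like the other groups. Without ATEV library 1 they shrank to 1.38 on the log2 scale against NTEVs (edgeR adjusted p = 0.201) and to -1.10 for DNase-treated against untreated ATEVs (0.435). Neither passed without an NTEV or a DNase-treated library (lowest edgeR adjusted p = 0.375). DESeq2 called both on all libraries (adjusted p = 6.81e-05 and 0.00104). The call against PBS was lost without PBS library 1 (edgeR adjusted p = 0.173), without PBS library 2 (0.155) and when only the 4 libraries compared were fitted (0.0554).

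Socs3, the inhibitor linked to the interleukin-6 receptor family, had close mean levels in the 3 EV groups. It was at 37.9 and 65.5 CPM with PBS, at 114 and 173 CPM with ATEVs, at 100.3 and 155 CPM with NTEVs, and at 93.1 and 190.2 CPM with DNase-treated ATEVs. As for Socs1, all 6 EV libraries stood above both PBS libraries. The EV groups overlapped each other, whereas the Socs1 ATEV libraries stood apart, though the Socs1 differences between EV groups missed the edgeR threshold. Socs3 was 2.78-fold higher with ATEVs (log2 fold change 1.48 ± 0.43 SE), 2.47-fold with NTEVs (1.31 ± 0.43) and 2.74-fold with DNase-treated ATEVs (1.46 ± 0.43). By edgeR none of the 3 passed, with adjusted p of 0.105, 0.183 and 0.108. DESeq2 called all 3, with adjusted p of 0.00882, 0.0420 and 0.0126, as did edgeR without the low-count filter, with adjusted p of 0.000807, 0.00750 and 0.00171. ATEVs and NTEVs differed by 0.17 on the log2 scale, with a wide interval of -0.82 to 1.16. DNase-treated and untreated ATEVs differed by -0.02, with an interval of -1.01 to 0.97. Both intervals hold no difference as well as a 2-fold one.

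**Figure D3:**
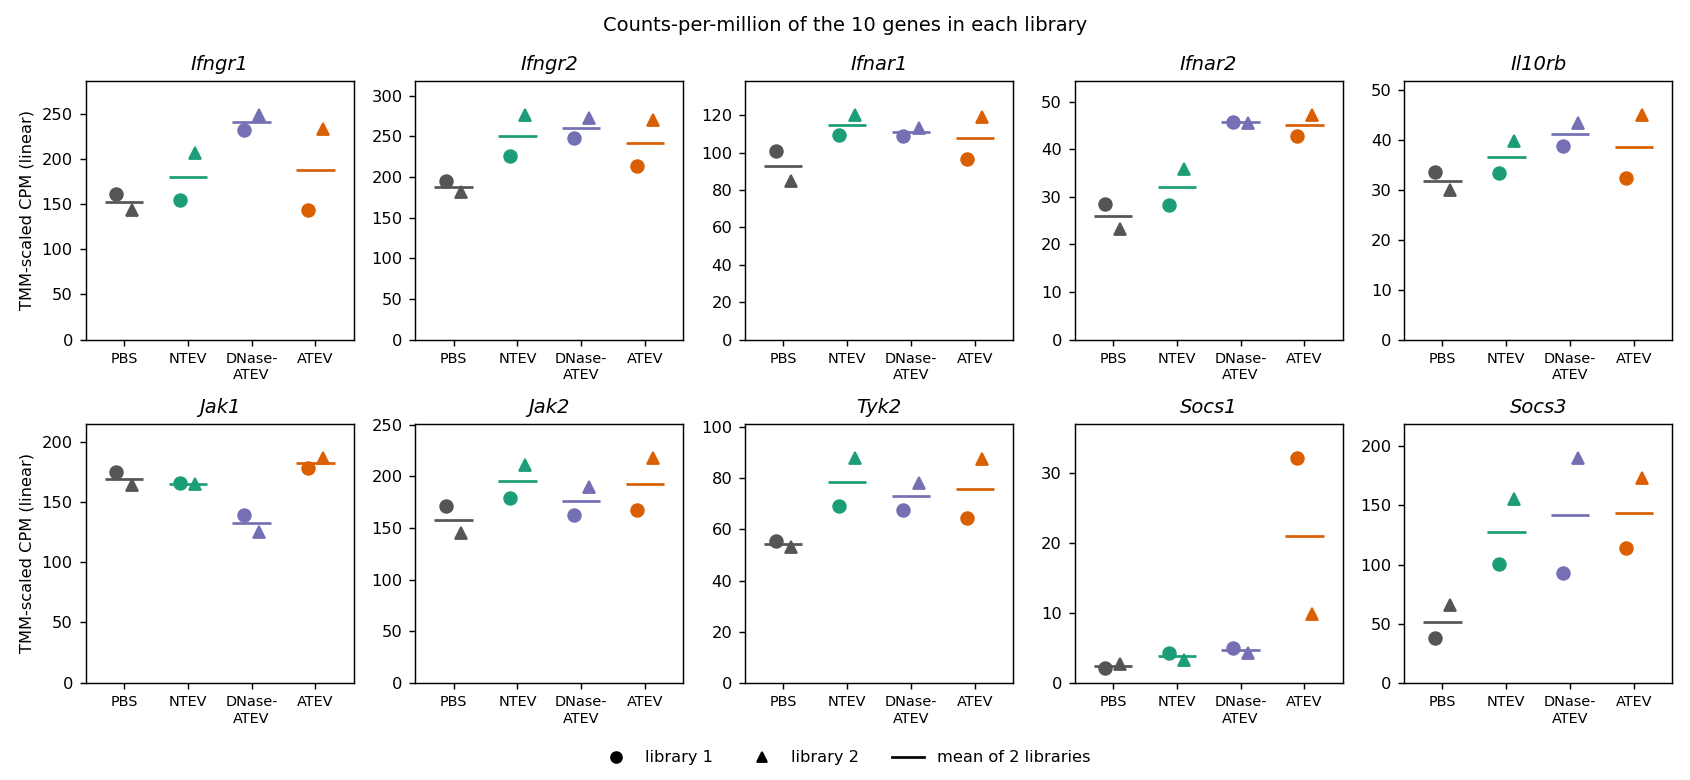
TMM-scaled CPM of the 10 genes in each of the 8 libraries, on linear axes that start at 0. Circles are library 1, triangles library 2 and bars the mean of the 2. Socs1 is high only in the ATEV libraries, at 32.1 and 9.77 CPM, Socs3 is above PBS in all 6 EV libraries, and Ifnar2 is near 45 CPM with ATEVs whether or not they were DNase-treated.

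Among the receptor genes, Ifnar2 rose with ATEVs. Ifnar2 is the chain of the type I receptor that binds interferon with high affinity and recruits STAT2. It was at 28.6 and 23.2 CPM with PBS, at 42.8 and 47.2 CPM with ATEVs, at 28.4 and 35.7 CPM with NTEVs, and at 45.8 and 45.5 CPM with DNase-treated ATEVs. All libraries of both ATEV groups stood above all libraries of PBS and NTEVs, and NTEV and PBS libraries overlapped. The level was 1.74-fold that of PBS with ATEVs (edgeR log2 fold change 0.80 ± 0.17 SE, adjusted p = 0.0456) and 1.76-fold with DNase-treated ATEVs (0.82 ± 0.17, adjusted p = 0.0541). The former passed and the latter did not, though DESeq2 (adjusted p = 0.00201) and edgeR without the low-count filter (0.0168) called the latter too. The difference between them was 0.02 on the log2 scale, with a 95% interval of -0.38 to 0.42. ATEVs and NTEVs differed 1.41-fold (interval 0.09 to 0.89), which did not pass (edgeR adjusted p = 0.422). The ATEV call was lost in all 4 fits that left out a library of the comparison, among protein-coding genes alone and with only the 4 libraries compared (highest edgeR adjusted p = 0.262, without PBS library 2).

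Ifnar1, the partner chain that carries Tyk2, did not follow. It was at 100.8 and 84.9 CPM with PBS, 96.7 and 119 CPM with ATEVs, 109 and 120.2 CPM with NTEVs, and 109 and 113 CPM with DNase-treated ATEVs. The ATEV libraries overlapped PBS, and the log2 fold change was 0.22 with an interval of -0.14 to 0.57 (edgeR adjusted p = 0.452). Whether Ifnar2 and Ifnar1 responded unequally was not tested.

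For the interferon gamma receptor, neither chain passed in any of the 5 comparisons. Ifngr1, which binds the ligand, was at 162 and 143 CPM with PBS, 143 and 233 CPM with ATEVs, 155 and 206 CPM with NTEVs, and 232 and 249 CPM with DNase-treated ATEVs. Only the DNase-treated group lay wholly above PBS, at 1.58-fold (log2 fold change 0.66 ± 0.25 SE, edgeR adjusted p = 0.164). Ifngr2, the signalling chain that brings Jak2, was at 195 and 181 CPM with PBS, and its 6 EV libraries ranged from 214 to 277 CPM, all above PBS. Its fold over PBS was 1.29 under ATEVs, 1.34 under NTEVs and 1.38 under DNase-treated ATEVs, with edgeR adjusted p of 0.261, 0.244 and 0.150. The ATEV intervals allowed log2 changes of -0.27 to 0.88 for Ifngr1 and -0.03 to 0.76 for Ifngr2.

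Il10rb is the accessory chain shared by the receptors for interleukin-10, interleukin-22 and interferon lambda. It was at 33.6 and 30.0 CPM with PBS, 32.3 and 45.0 CPM with ATEVs, 33.3 and 39.8 CPM with NTEVs, and 38.9 and 43.5 CPM with DNase-treated ATEVs. No comparison passed. Of its partner chains, Il22ra1 was at 106 ± 0.898 CPM and Ifnlr1 at 40.0 ± 0.294 CPM with PBS, while Il10ra had 1 count over all 8 libraries. Il10rb lies next to Ifnar2 and Ifnar1 on chromosome 16, in the order Ifnar2, Il10rb, Ifnar1, Ifngr2 of the RefSeq annotation. A read-through gene model, Gm21970, shares 315 exon bases with Ifnar2 and 569 with Il10rb on the same strand and had 0 counts in every library. How reads in shared exons were assigned is not given in the sources used here.

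Of the 3 kinases none passed in any comparison. Jak1, which serves both interferon receptors, was at 175 and 164 CPM with PBS, 178 and 186 CPM with ATEVs, 165 and 165 CPM with NTEVs, and 139 and 125 CPM with DNase-treated ATEVs. The DNase-treated libraries stood below the other 6. Jak1 differed by -0.46 on the log2 scale between DNase-treated and untreated ATEVs (interval -0.74 to -0.19, edgeR adjusted p = 0.208), a difference that DESeq2 called (adjusted p = 0.0242). Against PBS it was -0.36 (edgeR adjusted p = 0.131). Jak2, the partner kinase on the interferon gamma receptor, was at 171 and 145 CPM with PBS and at 163 to 218 CPM in the EV libraries, and its largest difference from PBS was 1.23-fold, with NTEVs. Tyk2, the kinase on Ifnar1, was at 55.4 and 53.2 CPM with PBS, and its 6 EV libraries ran from 64.5 to 88.0 CPM, all above PBS. Its fold over PBS was 1.40 under ATEVs, 1.45 under NTEVs and 1.34 under DNase-treated ATEVs (edgeR adjusted p = 0.203, 0.211 and 0.224). An antisense gene, 1700084C06Rik, shares 554 exon bases with Tyk2 and had 1 to 30 counts a library, against at least 1750 for Tyk2.

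Comparing the EV groups directly, edgeR called 0 of the 10 genes between ATEVs and NTEVs (background 1.19%), and 2, Socs1 and Ifnar2, were higher at p under 0.05 before adjustment, as were 4.4% of all genes. DESeq2 called 1, Socs1, and 3.14% of all genes. ATEVs were given at 15 µg/mL and NTEVs at 30 µg/mL. Kind and amount of EV therefore cannot be told apart in any difference between ATEVs and NTEVs given here. Between DNase-treated and untreated ATEVs edgeR called 0 (background 0.665%), and 2, Socs1 and Jak1, were lower at p under 0.05 before adjustment, as were 4.97% of all genes. DESeq2 also called these 2, and 2.76% of all genes. Both ATEV libraries lay above both NTEV libraries for 3 genes, Socs1, Ifnar2 and Jak1, against 13.7% of all genes. Both DNase-treated libraries lay below both untreated ones for 2, Socs1 and Jak1, against 16.8%. The median log2 difference of the 10 genes was 0.07 between ATEVs and NTEVs and 0.00 between DNase-treated and untreated ATEVs, against 0.01 and 0.01 over all genes. ATEV library 2 was above ATEV library 1 for 9 of the 10 genes, all but Socs1, NTEV library 2 above library 1 for 8 and DNase-treated library 2 above library 1 for 7. With PBS the order was the other way, with library 2 above library 1 for 2 of the 10. The part of this library difference in the comparisons was not tested.

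Interferon transcripts themselves were scarce. Of 21 interferon ligand genes 18 had no count in any library, Ifng and Ifnb1 among them. A count of 0 allows up to 3 counts, or 0.0572 to 0.0872 CPM per library by total counts, without TMM scaling. Ifna7 and Ifnz had 1 count each. Ifne, an interferon of epithelia, was the 1 ligand tested, with 4 and 3 counts with PBS and 22 and 18 with ATEVs (log2 fold change 2.42, edgeR adjusted p = 0.0373). Counts were 16 and 19 with DNase-treated ATEVs (2.33, edgeR adjusted p = 0.0541) and 13 and 8 with NTEVs (1.42, 0.209). Its level with ATEVs, 0.458 ± 0.0672 CPM, was still under 1 CPM, and the call was lost in each fit without a library of the comparison (highest edgeR adjusted p = 0.216).

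Downstream of the kinases, Stat2 and Irf9, parts of the complex that type I interferon assembles, rose with ATEVs, from 22.8 ± 2.56 to 85.3 ± 5.45 CPM and from 16.0 ± 0.330 to 52.04 ± 3.69 CPM (edgeR adjusted p = 0.0236 and 0.0259). With DNase-treated ATEVs Stat2 also rose, to 71.0 ± 28.3 CPM (edgeR adjusted p = 0.0498), a call lost without any 1 library of the comparison (highest edgeR adjusted p = 0.277). Irf9 was then at 39.8 ± 15.2 CPM (edgeR adjusted p = 0.0645). Stat3, which carries interleukin-6 family signals, rose from 98.4 ± 9.80 to 203 ± 13.2 CPM with ATEVs (edgeR adjusted p = 0.0375). With DNase-treated ATEVs Stat3 was near PBS, at 110.5 ± 17.5 CPM (edgeR adjusted p = 0.631). Its difference from untreated ATEVs, -0.87 on the log2 scale, did not pass (edgeR adjusted p = 0.185). All 3 of these ATEV calls ended in each of the 4 fits without a library of the comparison (highest edgeR adjusted p = 0.239, for Stat3 without PBS library 2). With NTEVs Stat2 was at 30.1 ± 10.4 CPM, Irf9 at 28.3 ± 8.68 CPM and Stat3 at 143 ± 38.0 CPM, none of them past the threshold against PBS (edgeR adjusted p = 0.485, 0.214 and 0.229).

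With ATEVs edgeR called 3.52% of all genes higher and 1.66% lower. Of 18 other negative regulators tested, 1 rose and 0 fell (median 0.04), a count near this background. The 1 that rose was Usp18, which removes ISG15 from proteins and blocks signalling at Ifnar2. Usp18 was at 0.699 and 0.729 CPM with PBS, 9.17 and 16.5 CPM with ATEVs, 1.35 and 2.44 CPM with NTEVs, and 5.40 and 11.4 CPM with DNase-treated ATEVs. It rose with ATEVs (log2 fold change 4.16, edgeR adjusted p = 0.00739) and with DNase-treated ATEVs (3.55, 0.0246). Leaving out PBS library 1 or 2 ended the ATEV call (edgeR adjusted p = 0.0995 and 0.0968). The DNase-treated call ended without PBS library 1 (0.176), PBS library 2 (0.199) or DNase-treated library 2 (0.111). DNase-treated and untreated libraries overlapped. The remaining SOCS genes did not pass in any comparison. Socs4, Socs5, Socs6 and Socs7 stayed between 23.0 and 74.2 CPM in all 8 libraries. All 6 EV libraries of Socs6, at 48.5 to 60.9 CPM, lay below both PBS libraries, at 73.6 and 74.2 CPM, without passing (edgeR adjusted p = 0.169 for ATEVs, 0.217 for NTEVs and 0.123 for DNase-treated ATEVs). Socs4 had the same order, at 23.0 to 28.9 CPM with EVs and 34.8 and 31.9 CPM with PBS. It did not pass either (edgeR adjusted p = 0.316, 0.262 and 0.339). With DNase-treated ATEVs alone, 30.9% of all genes lay below PBS in both libraries. Socs2 ran from 25.4 to 113 CPM, both of these in EV libraries. Cish, the founding member of the family, was at 26.9 and 22.8 CPM with PBS, and at 17.8 and 66.1 CPM with ATEVs, so its ATEV libraries lay on either side of PBS. Of 5 partners of the SOCS box in the ubiquitin ligase, edgeR called 0 with ATEVs (median -0.36). Before adjustment 2 were lower at p under 0.05 by edgeR, as were 1563 of all 15197 genes. DESeq2 called 0, against 1027 higher and 610 lower of all genes.

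**Figure D4:**
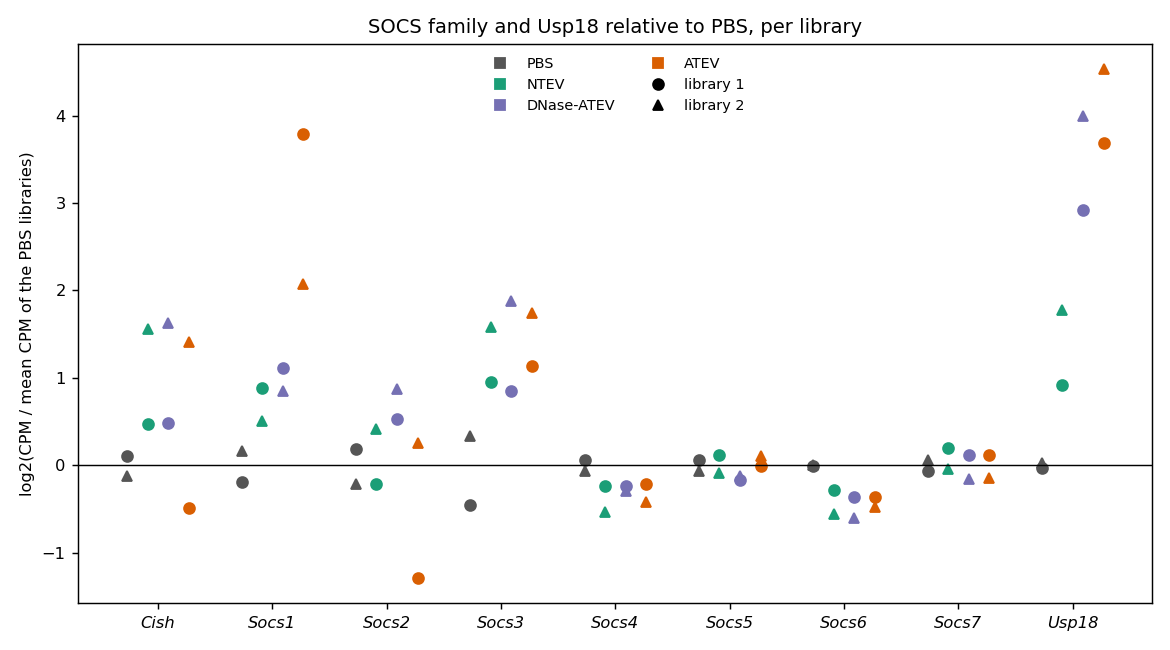
Log2 ratio of each library's CPM to the mean of the PBS libraries for the 8 SOCS family genes and Usp18, with circles for library 1 and triangles for library 2. Socs1 stands apart with ATEVs, Usp18 is raised in both ATEV groups, and Socs3 lies above PBS in all EV libraries. Socs4 and Socs6 lie below PBS in all 6 EV libraries.

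Of 19 other cytokine receptor chains tested, 4 rose with ATEVs and 0 fell (median 0.47), where 3.52% of all genes rose and 1.66% fell. Il15ra, which presents interleukin-15 to neighbouring cells, was at 0.680 and 0.729 CPM with PBS and 12.8 and 5.91 CPM with ATEVs, and at 0.896 and 1.17 CPM with DNase-treated ATEVs. Il13ra1, a chain of the interleukin-13 receptor, went from 7.46 ± 0.626 to 24.7 ± 3.10 CPM with ATEVs and was at 8.55 ± 0.829 CPM with DNase-treated ATEVs. Il15ra and Il13ra1 were the 2 of 19 called between ATEVs and NTEVs (background 1.19%). Both were higher with ATEVs (edgeR adjusted p = 0.00441 and 0.00924). These 2 calls ended without NTEV library 1 and with only the 4 libraries compared, and Il13ra1 also without ATEV library 1. Both were lower with DNase-treated than with untreated ATEVs (edgeR adjusted p = 0.0260 for each), and both of these calls ended without ATEV library 1, DNase-treated library 1 or DNase-treated library 2 (highest edgeR adjusted p = 0.210). Osmr, the oncostatin M receptor that pairs with Il6st, went from 2.06 ± 0.416 to 25.6 ± 1.98 CPM with ATEVs and was at 15.9 ± 3.79 CPM with DNase-treated ATEVs, higher than PBS in both (edgeR adjusted p = 0.0177 and 0.0465). Il12rb1 went from 0.748 ± 0.0689 to 3.62 ± 1.28 CPM with ATEVs (edgeR adjusted p = 0.0447). All 4 ATEV calls ended without PBS library 1 and without PBS library 2, and Il12rb1 ended also without either ATEV library. The Osmr call with DNase-treated ATEVs ended without any 1 library of its comparison. With NTEVs edgeR called 0 (background 1.11%). Before adjustment 1 higher and 1 lower had p under 0.05, against 10.3% of all genes higher and 1345 of 15197 lower. DESeq2 called 1, and 6.47% of all genes.

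Socs3 stands in a list of 18 genes that STAT3 can induce. Under ATEVs 4 of the 16 tested rose and 0 fell (median 1.47), and with DNase-treated ATEVs 6 rose and 0 fell (median 1.35). Of all genes, 3.52% rose and 1.66% fell with ATEVs, and 3.01% were called in either direction with DNase-treated ATEVs. Cebpd, a transcription factor of the acute phase response, was at 5.89 ± 0.863 CPM with PBS, 78.6 ± 17.4 CPM with ATEVs, 13.6 ± 6.15 CPM with NTEVs and 90.7 ± 27.4 CPM with DNase-treated ATEVs (edgeR adjusted p = 0.00334 with ATEVs). Lcn2, a secreted iron-binding protein, was at 5.57 ± 4.13 CPM with ATEVs and 51.0 ± 15.1 CPM with DNase-treated ATEVs, against 0.0291 ± 0.0412 CPM with PBS. Cebpb, a relative of Cebpd, went from 20.4 ± 1.97 to 61.8 ± 4.87 CPM with ATEVs (edgeR adjusted p = 0.0143). Osmr, given above, was the other call. With NTEVs edgeR called 0 (background 1.11%). Before adjustment 4 higher and 1 lower had p under 0.05, against 10.3% of all genes higher and 1345 of 15197 lower. DESeq2 called 3, and 6.47% of all genes. Without either PBS library the calls of this list with ATEVs and with DNase-treated ATEVs ended, and calls over all genes also fell. Without PBS library 1 or 2, log2 fold changes with ATEVs were 3.59 or 3.89 for Cebpd and 1.51 or 1.70 for Cebpb. They were 10.9 or 6.51 for Lcn2 and 3.86 or 3.44 for Osmr.

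Over the 8 libraries, the genes whose log2 CPM followed Socs1 most closely were Il18bp (Pearson's r = 0.969), Psmb10 (0.962) and Usf1 (0.951), among 10601 genes compared. Il18bp encodes a soluble inhibitor of interleukin-18 and Psmb10 an immunoproteasome subunit. Those closest to Ifnar2 were Arrdc4 (0.977), Mab21l3 (0.977) and Ifit1 (0.976), the last an interferon-stimulated antiviral gene. The libraries share their groups, so these values describe likeness of pattern only. By Spearman's rho the 3 closest genes held 0 of the Socs1 set and 1 of the Ifnar2 set. Among the members, Ifngr2 and Tyk2 had the highest r after scaling (0.958), and Socs1 with Socs3 had 0.436.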

How the data were processed

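Column-purified total RNA entered a TruSeq stranded mRNA preparation, per the labels' protocols. Cufflinks 2.1.1, TopHat, TopHat2 2.0.11 and bcl2fastq 2.19 are listed with build mm9, without roles, per the submitters' processing notes, whereas the read counter, its strand setting and its annotation are not named there. The deposited values are whole-number gene counts, used as the authors deposited them. Symbols were matched for 42250 of 42687 identifiers, and exon lengths came from GENCODE M21 (GRCm38), whose coordinates were not joined to the counts. Replicates of a group differed by more than sampling noise (chi-square per gene 39.0 to 145), and each was counted.

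Counts were fitted in R 4.3.3 with edgeR 4.0.16: a mean per group over all 8 libraries, TMM scaling, the filter on expression by group (15197 genes), 4 residual degrees of freedom, two-sided quasi-likelihood tests and Benjamini-Hochberg adjustment over all genes of a comparison, threshold 0.05. CPM is TMM-scaled, except in the floors for a count of 0. SE and 95% intervals are of log2 fold changes and follow from the same fit. In counts simulated for ATEVs against PBS over 15197 genes, the fit recovered 24% of 100 genes set to a 2-fold difference and 92% of 100 set to 4-fold. DESeq2 1.42.0 and the other alternatives are given under the dependence on processing.

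The members and lists were chosen with earlier results of these data known. All members are named, with up to 4 called genes of smallest p from each pathway list in ATEVs against PBS, and the 3 genes with the highest r for each called member (mean log2 CPM of at least 1, prior count 2, no predicted gene models). Il10ra, Il22ra1, Ifnlr1, Il3ra, Ifna7, Ifnz, 1700084C06Rik, Gm21970 and the SOCS genes that were not called are given beside members and were chosen after their values were seen. Floors from counts cover counting error only, whereas the intervals of fold changes come from the edgeR fit and include its estimated spread between libraries. Some alleles and genes, and the counts of the list of STATs, Irf9 and Jak3, are not reported here.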

Additional observations from a re-analysis of the deposited data

How the results depend on the processing

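Of the 10 genes, 2 were called with ATEVs against PBS; protein-coding genes alone gave 1, the 4 libraries compared alone 0, and leaving out a library gave 0 to 1: 0 without either PBS library and 1, Socs1, without either ATEV library. Socs1 kept its call in 7 of 10 alternatives (log2 fold change 2.12 to 3.79) and Ifnar2 in 4 of 10 (0.66 to 0.96). DESeq2 and edgeR without the low-count filter called Socs3 for ATEVs against PBS in addition to these 2. Of all genes, the main fit called 535 higher and 253 lower there, and protein-coding genes alone 292 and 79 of 12738. The 4 libraries compared alone gave 333 and 107, no filter 995 and 459 of 25199, and the replicate block 748 and 434. For NTEVs against PBS, where 0 of the 10 were called, DESeq2, no low-count filter and the replicate block each gave 1. For DNase-treated ATEVs against PBS, also 0, these 3 settings each gave 2. For ATEVs against NTEVs, DESeq2 and no filter gave 1 each, and leaving out a library 0 to 1. For DNase-treated against untreated ATEVs, DESeq2 gave 2, no filter 1, and leaving out a library 0 to 1. Over all genes, calls against PBS without the filter were 492 higher and 281 lower of 25199 for NTEVs. They were 1039 and 481 for DNase-treated ATEVs. With the block they were 215 and 115, and 673 and 379. The main fit gave 107 and 62, and 328 and 130. No filter gave 339 and 120 for ATEVs against NTEVs, and 124 and 219 for DNase-treated against untreated ATEVs. The cause was not tested. In every comparison, each fit without a library also called fewer of all genes than the fit to all libraries. No called difference reversed. Uncalled log2 differences changed sign when a library was left out, with these ranges. ATEVs against PBS: Ifngr1 -0.091 to 0.65. NTEVs against PBS: Jak1 -0.083 to 0.011. ATEVs against NTEVs: Ifngr2 -0.23 to 0.13, Ifnar1 -0.25 to 0.072, Jak2 -0.22 to 0.18, Tyk2 -0.28 to 0.17, Ifngr1 -0.33 to 0.39, Il10rb -0.18 to 0.32, Socs3 -0.17 to 0.52. DNase-treated against untreated ATEVs: Ifngr2 -0.073 to 0.28, Ifnar1 -0.12 to 0.20, Ifnar2 -0.066 to 0.092, Il10rb -0.15 to 0.35, Jak2 -0.32 to 0.077, Tyk2 -0.28 to 0.18, Socs3 -0.65 to 0.42. By Spearman's rho 1 of the 3 genes closest to Ifnar2 and 0 of those closest to Socs1 recurred.

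The labels do not say that library numbers pair the groups. Deviations of same-numbered libraries correlated at -0.24 to -0.14 between PBS and the EV groups and at 0.49 to 0.55 among the EV groups. Same-numbered EV libraries thus deviated together and PBS libraries did not join them. What the EV libraries of a number share is not stated, and its part in the results was not tested. With the replicate block 3 genes were called for ATEVs against PBS, Socs3 among them (edgeR adjusted p = 0.00267), and Socs3 passed for NTEVs (0.0122) and DNase-treated ATEVs (0.00684) too, as did Ifnar2 for DNase-treated ATEVs (0.0439). Levels of the 10 genes kept within 1 SD under another scaling. Pathway genes and lists were run under the same alternatives, a choice made after seeing the data. Each of the 10 genes had at least 86 counts in every library.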
